A study of Saccharomyces cerevisiae with 10 samples.

Results

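The genes described here are the 67 whose names begin with UTP, NOP, NOC, RRP, DBP or NSA followed by a number, out of 7041 annotated features measured in *S. cerevisiae*. Nearly all of them encode nucleolar proteins that process ribosomal RNA or assemble ribosomal subunits. They were found by name, and the matching itself used no measured value, although earlier results of these data were known when the rule was chosen. In the table of WT and *jhd2Δ* in raffinose 61 of the 67 carried such a name, and the other 6, among them NOP56 under its older name SIK1, were followed by their systematic identifiers. All 67 passed the filter on low values in every comparison below.

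RNA was depleted of ribosomal RNA and sequenced from yeast described in the labels as strain BY4742, in replicate cultures that carried, lacked or overexpressed *JHD2*, which encodes a demethylase of histone H3 lysine 4. WT and *jhd2Δ* were grown in synthetic medium with ammonium and glucose (YAD) or glutamate and glucose (YGD), with 3 cultures per group, and in ammonium and raffinose (YAR), with 2 per group. Cells labelled WT carried an empty vector (EV) or a multicopy plasmid with *JHD2* under the constitutive *ADH1* promoter (OE). They were grown in YAR, with 3 cultures per group, and also in YAD, for which the authors' group values alone were used. The study's strain list gives the strains with these plasmids as *leu2*, and the WT and *jhd2Δ* strains as prototrophic. By the labels, the WT cells of YAD and YGD and the EV and OE cells were of mating type alpha, and the *jhd2Δ* cells of every medium and the WT cells of YAR were of mating type a. In YAD and YGD the loss of *JHD2* and the labelled mating type therefore cannot be told apart, although the study's strain list gives both strains the same mating type. Levels are FPKM, fragments per kilobase of transcript scaled to the mapped fragments of the library, and each deposited table was normalised separately.

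*JHD2* itself matched the labels, at 3.97 to 7.13 FPKM in WT with glucose, 14.1 to 17.5 in WT in YAR, 0 to 0.0486 in the *jhd2Δ* cultures, 27.6 to 35.8 in EV and 1503 to 2213 in OE. FPKM sums per culture ran from 818862 to 857216 for WT and 1058791 to 1077309 for *jhd2Δ* in the YAR table, and from 1183230 to 1500655 elsewhere. WT replicate 3 in YGD (library scale 1.59, against 0.837 to 1.02 in the other 5 cultures) and EV replicate 3 in YAR (the lowest value of 31.2% of features, against 10.5% to 17.8% in the other 5 cultures) stood apart from the other cultures. The members' median change in those comparisons is given with and without them, and other results include them unless stated. The number of reads behind a value is unknown.

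Ribosomes are made in the nucleolus, where RNA polymerase I transcribes a long precursor of the ribosomal RNAs. The small subunit processome, a large particle with the U3 small nucleolar RNA at its core, folds and cuts the small subunit end of this precursor. Its UTP proteins form the subcomplexes UtpA, UtpB and UtpC. Box C/D and box H/ACA particles carry the small nucleolar RNAs that guide methylation and pseudouridylation of the precursor. A second series of factors, with many NOP, NOC, RRP, NSA and DBP proteins, builds the large subunit, and the exosome trims and degrades the spacer RNA. DBP proteins are DEAD-box RNA helicases. Yeast adjusts the expression of these genes to growth rate and nutrients, and many of their promoters hold the short elements PAC (bound by the repressors Dot6 and Tod6) and RRPE (bound by Stb3). By textbook role the 67 comprise 6 genes of UtpA, 4 of UtpB, 3 of UtpC, 5 of the small nucleolar particles and U3, 16 other small subunit factors, 24 large subunit factors, 7 exosome subunits, and DBP1 and DBP5, helicases with work outside ribosome assembly.

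The promoters of the members shared the PAC and RRPE cores. The PAC core GATGAG was found on either strand in the 250 bases before the annotated start of 54 of the 67 genes (80.6%), against 1022 of 6001 protein-coding genes (17.0%). The RRPE core AAAAATTTT was found in 33 (49.3%), against 404 of 6001 (6.73%). Both were present before 27 members (40.3%), against 201 of 6001 (3.35%). Matches may overlap each other, the window can include the 5′ UTR, and genes transcribed away from each other can share a window. The following stretches of 30 bases, shown because they hold a PAC core before genes that the results turn on, are written 5′ to 3′ on the gene's own strand from the RefSeq genome R64, with PAC and RRPE cores in capitals.
DBP2: cgatgCTCATCgcagAAAATTTTTccttca
DBP7: tgaaaaatttgcGATGAGcttaggaaaata
NOP7: ttgcGATGAGATGAGATGAGaaaaaatgaa
UTP7: aattttctaagcGATGAGttcgtgaaaaat
NOP1: gAAAAATTTTTcaaattggaaagCTCATCt
NOP56: gtGATGAGatgggaaatgAAAAATTTTgtg
NOP58: tttggAAAATTTTTcaacCTCATCgaaaat
RRP5: tttgAAAAATTTTaaGATGAGATGAGctaa
UTP10: gaaAAAAATTTTcagttagcGATGAGctag
These lie at chrXIV:413479-413508 (DBP2, plus strand), chrXI:487494-487523 (DBP7, minus), chrVII:695284-695313 (NOP7, plus), chrV:326044-326073 (UTP7, minus), chrIV:427137-427166 (NOP1, plus), chrXII:545968-545997 (NOP56, plus), chrXV:898471-898500 (NOP58, minus), chrXIII:731265-731294 (RRP5, minus) and chrX:217400-217429 (UTP10, minus). All are upstream of the coding sequence of their gene. In the stretches of DBP2, NOP1, NOP56, NOP58, RRP5 and UTP10 a PAC core and an RRPE core stand within 30 bases of each other. In NOP7 overlapping copies of the PAC core follow each other, and its RRPE cores, at -141 and -105 from the gene start, are cut off by the ends of the stretch. Of 80 PAC matches before the members 63 lay from -175 to -75, counted from the gene start, as did 33 of 44 RRPE matches.

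**Figure D1:**
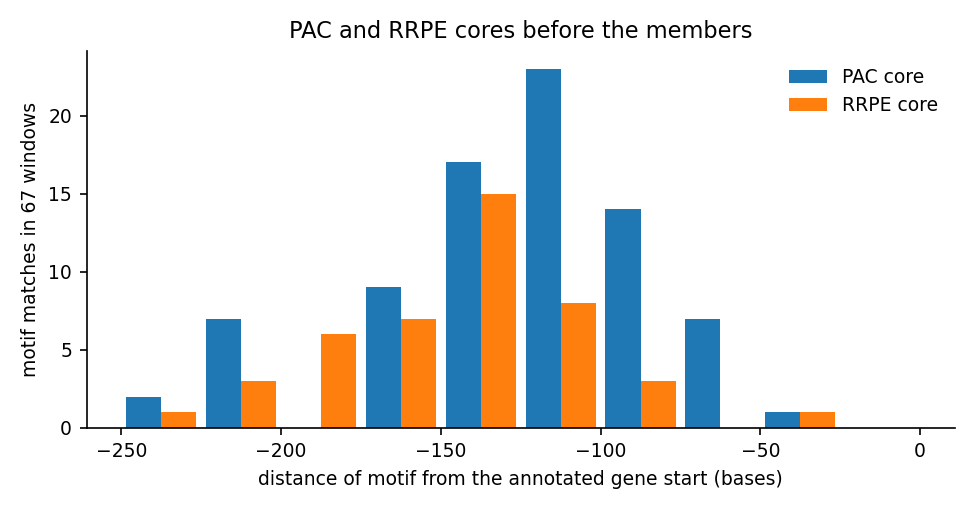
Number of PAC core (blue) and RRPE core (orange) matches on either strand in the 67 promoter windows, in bins of 25 bases of the distance between the motif's first base and the annotated gene start. The bin from -125 to -100 holds most PAC matches (23) and the bin from -150 to -125 most RRPE matches (15).

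The 7 members with neither core in the window were DBP1, DBP5, RRP42, RRP45, RRP46, UTP22 and UTP30. DBP1 and DBP5 are the helicases outside ribosome assembly, the 3 RRP genes encode subunits of the exosome ring, UTP22 is a subunit of UtpC, and UTP30 is a small subunit factor related to a ribosomal protein of the large subunit. The absence of a match says only that these letters are not in this window.

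Levels differed widely among the members. In WT in YAD the means ran from 2.17 FPKM for RRP17, a nuclease of large subunit assembly, to 851 for NOP10, an H/ACA core protein whose gene, at 177 bases, is the shortest of the 67. Their median was 16.8 FPKM, against 14.3 over all features of at least 1 FPKM. NOP1, the methyltransferase fibrillarin, followed NOP10 at 313 ± 6.70 FPKM (SD, n = 3). Then came its partners in the box C/D particle, NOP56 at 121 ± 20.2 and NOP58 at 115 ± 19.7. The values of these partners overlapped across cultures, although NOP56 was the higher within each culture. DBP2 stood at 69.8 ± 9.05, UTP10, a large scaffold protein of UtpA, at 52.0 ± 5.51, and RRP5, needed for both subunits, at 50.6 ± 5.90. The last pair also overlapped across cultures, with UTP10 the higher within each culture. At the low end stood RRP36 (3.93), NOP8 (3.87) and DBP1 (2.53).

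The order of levels was close to that of WT in YAD in most groups and far from it in the YAR table of WT and *jhd2Δ*. Across the 67 genes Spearman's rho of the group means with WT in YAD was 0.973 to 0.977 in the other glucose groups, 0.913 in EV and 0.907 in OE in YAR, and 0.524 in WT and 0.613 in *jhd2Δ* in YAR. These are descriptions across genes, which are not independent replicates. NOP1 stood at 13.7 and 9.32 FPKM in WT and 9.28 and 14.8 in *jhd2Δ* in that table, against 435 to 569 in the 6 plasmid cultures in the same medium. RRP17 stood at 99.5 FPKM there in WT, against 4.36 in EV. For 8 members, NOP4, NOP13, NOP56, NOP58, RRP9, RRP14, RRP15 and RRP17, the YAR table gives a wider locus, while the other tables list a feature that overlaps the coding sequence by 254 to 565 bases. The overlapping feature lies on the opposite strand for 7 of them and on the same strand for NOP58. The sources used here do not say whether the quantification used strand, so for these 8 genes reads of overlapping features may not be separable, and levels are not compared between tables. NOP1 is not among the 8, and its locus is the same in both tables.

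In empty-vector cells the members stood higher in raffinose than in glucose relative to the other features. The authors give 1 group FPKM per medium for this pair, so there is no replicate check and no test. The table names its sides as empty vector in each medium, and that is followed here, although the labels list the table with the WT and *jhd2Δ* samples of YAR and not with the empty-vector samples. Over 6241 features the deposited log2 ratio of YAR to YAD had a median of -0.71, and ratios are given here after subtracting it. The median of the members was then 1.02, and 66 of 67 lay above 0, against 50% of all features. Past 1.4-fold on this centred scale were 62 of the 67 upwards and 0 downwards, against 22.7% and 19.6% of all features. As deposited, the median of the members was 0.31, with 53 of 67 above 0, against 15.4% of all features, and 22 past 1.4-fold upwards (6.63% of all features) and 2 downwards (64.3%). The direction of the members therefore held on both scales for most genes, while its size depended on the centring.

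The members with the highest ratios were large and small subunit factors. DBP2, a helicase with roles in messenger and ribosomal RNA, went from 83.9 to 217 FPKM (centred log2 ratio 2.07). The large subunit helicase DBP7 went from 6.79 to 15.1 (1.75), and NOP7, a large subunit scaffold, from 64.3 to 128 (1.69). RRP36, which acts in the early cleavages of the small subunit precursor, went from 3.99 to 8.52 (1.64), and UTP7 of the small subunit processome from 12.3 to 22.1 (1.51). These 5 stood above 96.3% of all features or more. At the other end stood the genes with work elsewhere. DBP1, a homologue of a helicase of translation initiation, went from 4.41 to 1.72 FPKM (-0.28), and DBP5, the helicase of messenger RNA export, from 54.5 to 33.9 (0.04). Next came RRP7 of UtpC, from 43.0 to 34.5 FPKM (0.41), the large subunit helicase DBP6, from 24.9 to 20.0 (0.41), and RRP6, the nuclear exonuclease of the exosome, from 23.7 to 19.8 (0.46). On the deposited scale all 5 of these were lower in raffinose.

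By role, the centred median was 1.22 for the 24 large subunit factors, 1.19 for UtpA, 0.95 for the 16 other small subunit factors, 0.93 for UtpC, 0.86 for UtpB, 0.75 for the 7 exosome subunits and 0.71 for the small nucleolar particles and U3. DBP1 and DBP5 were the only role group with a median below 0 (-0.12). Of the other genes fixed by role, UTP10 had 1.41, NSA1 of the large subunit 1.42, NOP58 1.24, NOP56 1.03, RRP5 0.95, UTP22 0.93 and NOP1 0.71. Members whose window held both cores had a median of 1.16 (n = 27), those with PAC alone 1.02 (n = 27), those with RRPE alone 1.02 (n = 6) and those with neither 0.61 (n = 7). Among the other protein-coding genes the medians were 0.91 with both cores (n = 174), 0.19 with PAC alone (n = 706), 0.20 with RRPE alone (n = 196) and -0.08 with neither (n = 4546). The other protein-coding genes were not filtered by function, so they include assembly factors that the naming rule does not catch. All these medians are descriptions with no test.

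**Figure D2:**
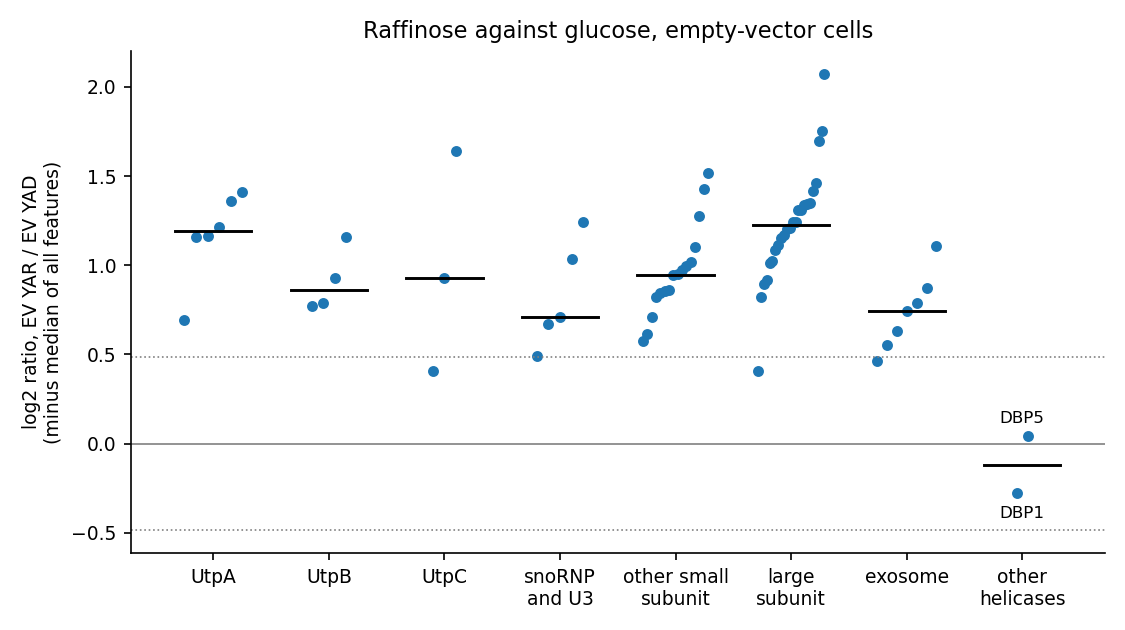
Log2 ratio of the authors' group FPKM in EV YAR to EV YAD, minus the median of all 6241 features, for the 67 members grouped by role, with 1 dot per gene, black bars for the median of each role and dotted lines at 1.4-fold. DBP1 (-0.28) and DBP5 (0.04) sit lowest, and DBP2 (2.07) sits highest.

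A list of 81 other assembly factors that the naming rule does not catch, such as PWP2, MPP10 and CBF5, had a centred median of 1.10, with 81 of 81 above 0 and 78 past 1.4-fold upwards. The 138 cytosolic ribosomal protein genes had 0.09, with 13 past 1.4-fold upwards and 4 downwards. Among 5 regulators, the PAC-binding repressor TOD6 went from 8.53 to 20.2 FPKM (1.87), while its paralogue DOT6 went from 95.4 to 30.5 (-0.90), STB3 from 15.9 to 5.42 (-0.69), the kinase SCH9 from 44.5 to 24.6 (-0.12) and the activator SFP1 from 42.9 to 30.6 (0.24). EV replicate 3 stood apart in the replicate values of YAR, and the group value could not be given without it.

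With *JHD2* overexpressed in YAD, most members stood near the other features and slightly below their median. The authors' group values gave a centred median log2 ratio of OE to EV of -0.07 over the 67, with 18 above 0, against 50% of all 6223 features. None was past 1.4-fold (0 in either direction), against 2.41% of features upwards and 2.64% downwards. As deposited the median was -0.18, with 6 of 67 above 0, against 26% of features, 0 past 1.4-fold upwards (1.57%) and 2 downwards (4.95%). The highest were NOP13 (0.22, from 12.6 to 13.6 FPKM), RRP40 of the exosome (0.18), NOP12 (0.16), DBP5 (0.15) and DBP10 (0.14). The lowest were RRP7 (-0.40, from 41.8 to 29.0 FPKM), UTP23 (-0.37), RRP9, the U3 particle protein (-0.31), UTP30 (-0.27) and RRP14 (-0.26). There are no replicate values behind these.

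In YAR, where overexpression was compared over 3 cultures per group, most members had higher means in OE, and most of that difference went with a single EV culture. In the limma fit across 6331 features 0 members were called in either direction, where a call needed an adjusted p under 0.05 and a fold over 1.4, against 0.0158% of features called higher and 0% called lower. At an unadjusted p under 0.05, 6 members were higher and 0 lower, against 6.97% and 7.31% of features, and limma without its trend and robust options gave the same counts of calls. The median log2 fold change of the members was 0.45 against -0.01 for all features, and 4 of 67 lay below 0, against 50.7% of features. The scaled FPKM of the groups did not overlap for 11 members that were higher in OE and 0 that were lower, against 11.1% and 12.1% of features. The 3 largest positive values were those of RRP36 (0.73), NOP53 (0.73) and NOP4 (0.72), and the negative ones with the largest size NOP10 (-0.31), NOP1 (-0.17) and RRP40 (-0.04).

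The values by culture show the split. RRP36 stood at 15.4, 23.4 and 5.24 FPKM in EV and 27.7, 20.7 and 22.7 in OE (SE 0.42). NOP53, a late large subunit factor, stood at 41.2, 60.5 and 13.5 in EV and 70.5, 53.0 and 56.6 in OE. NOP4, an RNA-binding protein of the large subunit, stood at 40.04, 56.1 and 18.1 in EV and 60.6, 63.0 and 65.0 in OE, where OE lay above every EV culture. EV replicate 3 was the lowest culture for all 3. NSA1 stood at 32.6, 40.8 and 17.7 FPKM in EV and 47.1, 49.4 and 49.0 in OE (log2 fold change 0.61, adjusted p = 0.349). DBP2 stood at 273, 403 and 133 in EV and 380, 446 and 464 in OE (0.67). UTP10 stood at 129, 174 and 64.9 in EV and 172, 178 and 174 in OE (0.49). The same culture was lowest again. RRP5 stood at 117, 148 and 56.5 FPKM in EV and 143, 158 and 149 in OE (0.46). UTP22 stood at 77.6, 104 and 39.8 in EV and 107, 102 and 101 in OE (0.45). NOP7 stood at 163, 211 and 71.4 in EV and 206, 181 and 180 in OE (0.35). For these genes EV replicate 2 lay among the OE cultures or above them. RRP6 stood at 33.5, 44.3 and 20.7 FPKM in EV and 44.6, 42.9 and 41.5 in OE (0.31). DBP5 stood at 51.1, 62.7 and 34.9 in EV and 66.5, 63.96 and 58.9 in OE (0.25). Of the box C/D genes, NOP58 stood at 222, 250 and 131 in EV and 221, 271 and 266 in OE (0.24). NOP56 stood at 237, 256 and 163 FPKM in EV and 233, 287 and 279 in OE (0.17). NOP1 stood at 556, 519 and 489 in EV and 435, 569 and 524 in OE (-0.17). DBP1 went against the others, at 2.26, 2.42 and 4.76 in EV and 3.07, 3.61 and 3.17 in OE (-0.01), with its highest value in EV replicate 3. NOP10 stood at 2375, 2069 and 1028 FPKM in EV and 2173, 1333 and 1218 in OE, and RRP40 at 69.9, 69.1 and 52.3 in EV and 62.5, 73.0 and 67.1 in OE.

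Of the 67 members 64 were lowest in EV replicate 3, where 31.2% of all tested features had their lowest value. The members summed to 3435 FPKM in that culture, against 6809 and 7501 in the other EV cultures and 6609 to 7558 in OE. Without EV replicate 3 the median log2 fold change of the members fell to 0.10, with 17 of 67 below 0 and 0 called. Without EV replicate 2 it was 0.71, with 32 members higher at an unadjusted p under 0.05, against 13.25% of features, and 0 called. Without EV replicate 3 that count was 4, against 7.61% of features. It was 3 without EV replicate 1 (3.79%) or OE replicate 1 (4.98%), and 0 without OE replicate 2 (3.08%) or 3 (3.04%). The 81 other assembly factors had a median of 0.44 with all cultures, 80 of 81 above 0 and 0 called, and the 138 ribosomal protein genes -0.22, with 0 called.

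**Figure D3:**
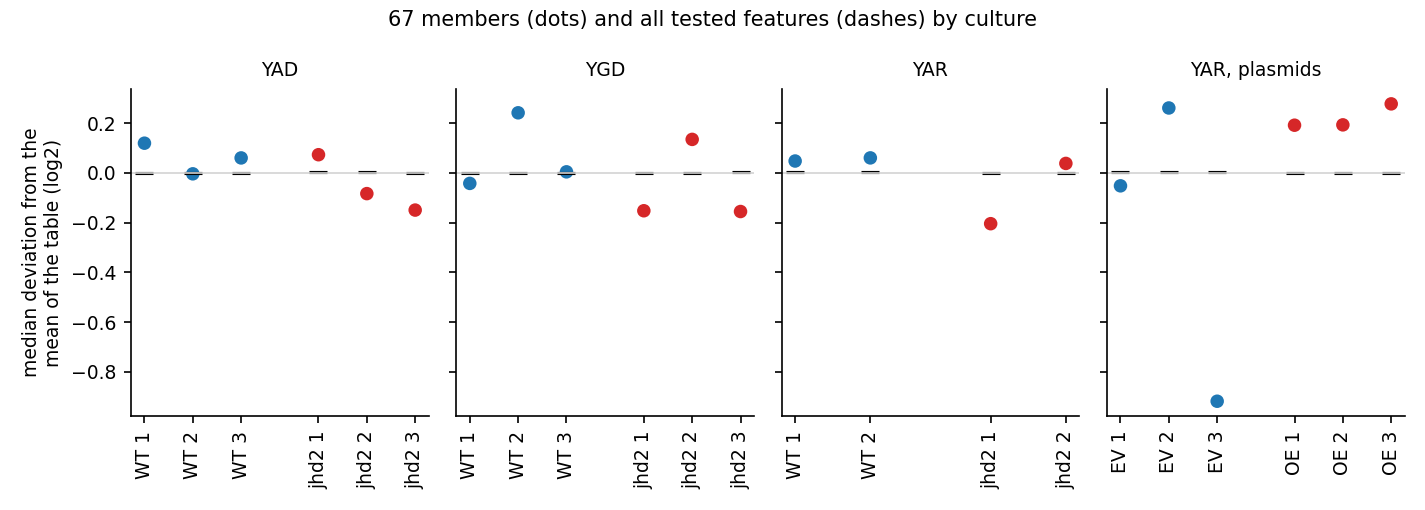
Median over the 67 members (dots, blue for WT or EV and red for *jhd2Δ* or OE) and over all tested features (black dashes) of the deviation of each culture from the mean of its table, on the log2 scale of scaled FPKM plus 1. The dot of EV replicate 3 lies at -0.92, while the other dots lie between -0.20 and 0.28.

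In YAD the *jhd2Δ* values of most members lay slightly below those of WT. The fit across 6184 features called 0 members higher and 1 lower, against 1.68% and 4.04% of features. At an unadjusted p under 0.05, 2 were higher and 17 lower, against 14.02% and 14.7% of features. The count of 17 became 9 without WT replicate 1 (13.25% of features) and 10 without *jhd2Δ* replicate 2 (11.5%) or 3 (12.65%). It became 24 without *jhd2Δ* replicate 1 (13.27%). The median log2 fold change was -0.11 against 0.01 for all features, and 48 of 67 lay below 0, against 48.4% of features. The scaled FPKM of the groups did not overlap for 3 members that were higher in *jhd2Δ* and 17 that were lower, against 17.6% and 18.1% of features. The gene called was RRP12, a HEAT-repeat protein of the small subunit that takes part in the export of both subunits, at 33.8, 27.7 and 28.8 FPKM in WT and 18.1, 19.0 and 18.5 in *jhd2Δ* (log2 fold change -0.61, SE 0.08, adjusted p = 0.0103). The groups did not overlap, and RRP12 stayed called when any culture was left out.

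Among the members not called, the lowest log2 fold changes were those of NOP6, UTP10 and RRP5. NOP6, a small subunit factor, stood at 6.99, 6.03 and 5.84 FPKM in WT and 4.17, 4.74 and 3.81 in *jhd2Δ* (-0.43, adjusted p = 0.0537). UTP10 stood at 56.8, 46.0 and 53.2 in WT and 37.1, 39.9 and 36.5 in *jhd2Δ* (-0.39), with an adjusted p of 0.0387 but a fold under 1.4. RRP5 stood at 56.4, 44.6 and 50.7 in WT and 37.8, 37.9 and 36.5 in *jhd2Δ* (-0.36, adjusted p = 0.0549). In each of the 3 the *jhd2Δ* cultures lay below all WT cultures. The same held for NOP1, at 315, 306 and 319 FPKM in WT and 237, 249 and 255 in *jhd2Δ* (-0.28, adjusted p = 0.0516). It held for RRP6 as well, at 16.8, 14.8 and 14.5 in WT and 11.7, 12.1 and 11.3 in *jhd2Δ* (-0.31). In the other direction stood UTP18 of UtpB, at 15.4, 11.5 and 15.7 in WT and 16.5, 15.97 and 16.2 in *jhd2Δ* (0.25). RRP7 stood at 34.0, 34.2 and 31.6 in WT and 37.8, 36.5 and 39.9 in *jhd2Δ* (0.25), and RRP43 of the exosome at 18.7, 17.5 and 19.1 in WT and 17.2, 22.2 and 22.3 in *jhd2Δ* (0.20). None of these 3 passed the test.

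The remaining genes fixed by role overlapped between the groups in YAD on the deposited values. NOP56 stood at 141, 100 and 121 FPKM in WT and 118, 120 and 107 in *jhd2Δ*, and NOP58 at 136, 96.8 and 112 in WT and 99.4, 108 and 93.9 in *jhd2Δ* (-0.12). NOP7 stood at 52.9, 39.2 and 55.4 in WT and 49.2, 48.4 and 43.0 in *jhd2Δ*. UTP22 stood at 36.8, 31.1 and 33.6 in WT and 29.9, 31.9 and 30.6 in *jhd2Δ* (-0.07). The lowest WT culture lay below the highest *jhd2Δ* culture for each of these 4. NSA1 stood at 12.6, 9.33 and 10.7 in WT and 9.36, 9.37 and 6.61 in *jhd2Δ* (-0.28), and DBP2 at 77.2, 59.7 and 72.6 in WT and 63.0, 57.4 and 48.4 in *jhd2Δ* (-0.25). DBP5 stood at 39.5, 34.4 and 37.0 in WT and 35.4, 38.1 and 36.8 in *jhd2Δ* (0.05). DBP1 stood at 2.36, 2.59 and 2.66 in WT and 1.73, 2.33 and 3.44 in *jhd2Δ*. By role, the medians were lowest for the other small subunit factors (-0.18, 14 of 16 below 0) and the large subunit factors (-0.15, 19 of 24), and above 0 for UtpB (0.10) and the exosome (0.07). Among the 81 other assembly factors 0 were called higher and 2 lower, the nucleolar phosphoprotein gene SRP40 (-1.45, adjusted p = 0.0107) and the exosome helicase MTR4 (-0.73, adjusted p = 0.00604), with a median of -0.14. Of the regulators SCH9 fell (-0.63, adjusted p = 0.00662), and the other 4 were not called (-0.39 to -0.24).

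In YGD no member was called between *jhd2Δ* and WT (0 higher and 0 lower over 6211 features), where 0.193% of features were called higher and 0.145% lower. At an unadjusted p under 0.05, 0 members were higher and 2 lower, against 3.65% and 3.20% of features, and limma without its trend and robust options called 0 as well. Leaving out WT replicate 1 raised the count of 2 to 4 (4.07% of features), WT replicate 3 to 5 (8.955%) and *jhd2Δ* replicate 2 to 9 (2.82%). Leaving out each of the other 3 cultures in turn lowered it to 1, against 1.37% to 2.76% of features. The median log2 fold change was -0.14 against -0.00028 for all features, with 57 of 67 below 0, against 50.1% of features. Without overlap of the groups on the scaled values, 0 members were higher and 4 lower, against 7.86% and 7.37% of features. This direction rested on the library scale. With FPKM as deposited the median of the members was 0.08 and that of all features 0.20, so that on either scale the members lay below the other features. WT replicate 3, with its library scale of 1.59, held 1500 FPKM over the members, against 2946 and 3394 in the other WT cultures. Without it the median was -0.17, with 58 of 67 below 0 and 0 called.

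The values in YGD show how wide the WT group was. DBP8, a small subunit helicase with the lowest log2 fold change, stood at 10.5, 12.2 and 5.48 FPKM in WT and 6.78, 8.78 and 6.03 in *jhd2Δ* (-0.49, adjusted p = 0.507). RRP8, a methyltransferase of the large subunit RNA, stood at 16.3, 22.6 and 11.97 in WT and 12.4, 19.5 and 12.4 in *jhd2Δ* (-0.39), and RRP45 at 18.6, 21.1 and 14.6 in WT and 14.8, 22.2 and 13.1 in *jhd2Δ* (-0.35). On the deposited values the groups overlapped in all 3, while the scaled values of DBP8 did not overlap. The highest value was that of NOP16, a large subunit factor, at 9.96, 11.98 and 1.18 in WT and 7.46, 10.3 and 7.17 in *jhd2Δ* (0.31), and it stood at -0.32 without WT replicate 3. RRP42 stood at 34.4, 32.99 and 14.5 in WT and 31.6, 38.1 and 32.96 in *jhd2Δ* (0.19), and UTP20, a very large scaffold protein, at 36.0, 48.9 and 21.0 in WT and 40.3, 52.7 and 36.0 in *jhd2Δ* (0.12). WT replicate 3 held the lowest deposited value for NOP16, RRP42 and UTP20.

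The same was seen in the genes fixed by role, for which the adjusted p lay between 0.800 and 0.975. NOP1 stood at 270, 305 and 178 FPKM in WT and 301, 334 and 248 in *jhd2Δ*. NOP56 stood at 149, 181 and 98.8 in WT and 150, 194 and 133 in *jhd2Δ*, and NOP58 at 138, 159 and 83.1 in WT and 132, 170 and 114 in *jhd2Δ*. Replicate 2 was the highest culture of each genotype for these genes. UTP10 stood at 49.4, 65.5 and 26.7 in WT and 50.2, 66.2 and 44.9 in *jhd2Δ*. RRP5 stood at 61.4, 77.6 and 40.01 in WT and 60.2, 86.4 and 51.7 in *jhd2Δ*. UTP22 stood at 34.8, 39.4 and 20.3 in WT and 35.9, 44.3 and 33.1 in *jhd2Δ*. Scaled log2 fold changes of these 3 lay between -0.06 and 0.07. NOP7 stood at 59.1, 81.1 and 56.1 in WT and 52.2, 83.8 and 52.3 in *jhd2Δ* (-0.30), NSA1 at 12.2, 15.4 and 7.95 in WT and 11.2, 15.1 and 8.86 in *jhd2Δ* (-0.21), and DBP2 at 61.7, 92.5 and 44.8 in WT and 59.1, 84.3 and 52.2 in *jhd2Δ* (-0.22). RRP6 stood at 19.1, 20.5 and 13.0 in WT and 18.8, 23.5 and 15.6 in *jhd2Δ* (-0.08). DBP5 stood at 63.9, 65.4 and 34.7 in WT and 58.7, 70.0 and 52.6 in *jhd2Δ* (-0.04), and DBP1 at 2.86, 3.36 and 1.87 in WT and 3.83, 3.36 and 2.94 in *jhd2Δ* (0.10). The large subunit factors had the lowest median of the roles (-0.19, 23 of 24 below 0). Of the 81 other assembly factors 74 lay below 0 with 0 called (median -0.16), and so did 125 of the 138 ribosomal protein genes with 0 called (median -0.28).

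In YAR members were called in both directions, as were features in general. The fit across 5846 features, with 2 cultures per group, called 4 of the 67 higher in *jhd2Δ* and 6 lower, against 13.8% of features called higher and 8.6% lower. The median log2 fold change was -0.09 against -0.01 for all features, and 47 of 67 lay below 0, against 51.3% of features. The scaled FPKM did not overlap for 9 members that were higher and 27 that were lower, against 31.9% and 32.2% of features. Raised were NOP58 (0.77), UTP23 (0.75), NOP53 (0.64) and NOP56 (0.61). Lowered were NOP10 (-0.91), RRP8 (-0.73), UTP8 (-0.72), NOP16 (-0.71), RRP14 (-0.56) and UTP30 (-0.55). Of the 5 genes of the small nucleolar particles and U3, NOP58 and NOP56 were among the raised and NOP10 among the lowered.

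NOP58 stood at 102 and 77.9 FPKM in WT and 133 and 176 in *jhd2Δ* (SE 0.20, adjusted p = 0.0142). NOP56 stood at 188 and 171 in WT and 234 and 320 in *jhd2Δ* (SE 0.21, adjusted p = 0.0444). These are the paired core proteins of the box C/D particle, and the overlap of their loci with other features limits both values. UTP23, a small subunit factor with a PIN domain, stood at 32.4 and 31.9 FPKM in WT and 49.4 and 61.0 in *jhd2Δ* (SE 0.18, adjusted p = 0.00779). NOP53 stood at 27.6 and 25.7 in WT and 38.0 and 46.4 in *jhd2Δ* (SE 0.18, adjusted p = 0.0189). The *jhd2Δ* cultures of all 4 lay above both WT cultures, with replicate 2 the higher.

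NOP10 stood at 6314 and 6846 FPKM in WT and 3569 and 3452 in *jhd2Δ* (SE 0.23, adjusted p = 0.0131). As the most abundant member it carried the sum over the members, which was 10669 and 11148 FPKM in WT and 7403 and 8024 in *jhd2Δ*. NOP16 stood at 102 and 97.7 in WT and 57.2 and 63.96 in *jhd2Δ* (SE 0.17, adjusted p = 0.0092). RRP8 stood at 73.8 and 69.7 in WT and 35.8 and 51.3 in *jhd2Δ* (SE 0.19, adjusted p = 0.015). UTP8, a subunit of UtpA, stood at 61.9 and 55.2 in WT and 37.7 and 32.8 in *jhd2Δ* (SE 0.17, adjusted p = 0.00935). WT lay above *jhd2Δ* without overlap in these genes. RRP14, a factor of both subunits, stood at 47.4 and 44.9 in WT and 32.7 and 29.3 in *jhd2Δ* (SE 0.17, adjusted p = 0.0296), with the same limit from an overlapping feature. UTP30 stood at 33.7 and 34.3 in WT and 20.5 and 25.6 in *jhd2Δ* (SE 0.18, adjusted p = 0.0405).

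**Figure D4:**
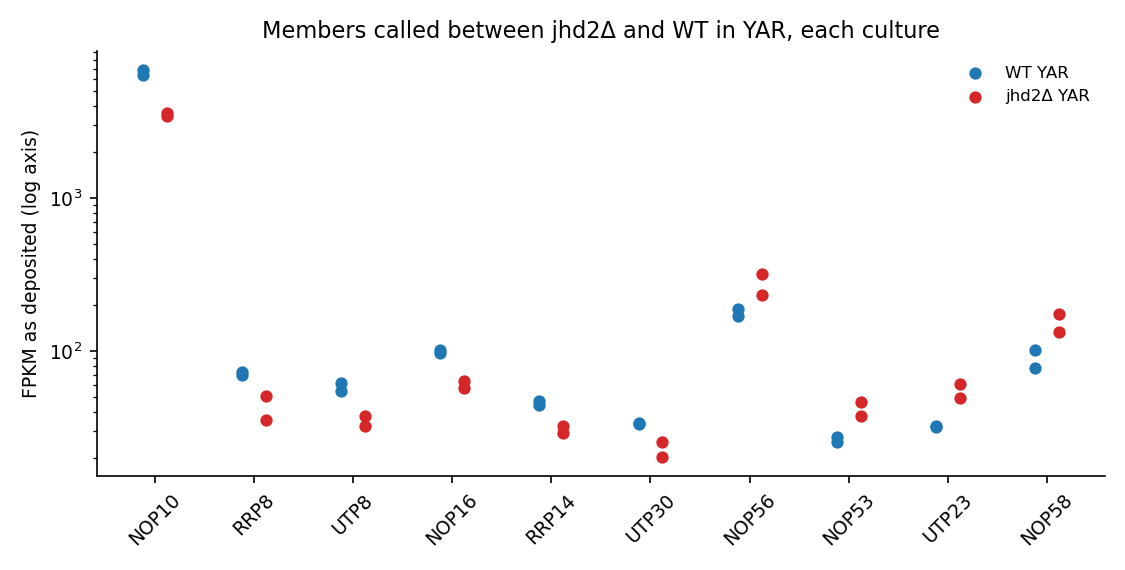
Deposited FPKM (log axis) of the 10 members called between WT (blue) and *jhd2Δ* (red) in YAR, with 1 dot for each of the 2 cultures per group, ordered by fold change. NOP10 lies near 6580 FPKM in WT and 3511 in *jhd2Δ*, and in none of the 10 genes do the groups overlap.

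Of the other genes fixed by role, DBP2 stood at 295 and 266 FPKM in WT and 347 and 334 in *jhd2Δ* (0.28), and UTP10 at 69.4 and 50.7 in WT and 69.8 and 78.1 in *jhd2Δ* (0.31). NSA1 stood at 66.5 and 66.4 in WT and 46.9 and 58.5 in *jhd2Δ* (-0.34), and RRP6 at 73.0 and 70.0 in WT and 57.4 and 58.7 in *jhd2Δ* (-0.30). The groups did not overlap for these 4, but none passed the test. NOP7 stood at 162 and 179 in WT and 121 and 177 in *jhd2Δ* (-0.22), UTP22 at 89.9 and 72.1 in WT and 68.2 and 72.6 in *jhd2Δ* (-0.19), and RRP5 at 69.2 and 63.2 in WT and 60.1 and 72.8 in *jhd2Δ*. NOP1, at its low level in this table, stood at 13.7 and 9.32 in WT and 9.28 and 14.8 in *jhd2Δ* (0.05). DBP5 stood at 128 and 130 in WT and 120 and 130 in *jhd2Δ* (-0.05), and DBP1 at 35.5 and 40.4 in WT and 43.2 and 36.1 in *jhd2Δ* (0.06). These 6 overlapped between the groups.

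The calls in YAR rest on 2 cultures per group, and the values depended on single cultures. Leaving out a culture leaves 1 in its group, so only medians are given. Without *jhd2Δ* replicate 1, the culture in which 44 of 67 members were lowest, the median was 0.01, against -0.01 over all features. Without *jhd2Δ* replicate 2 it was -0.27, against -0.01. It was -0.09 without WT replicate 1 and -0.12 without WT replicate 2, against -0.01 over all features each time. limma without its trend and robust options called NOP10 alone. Of the 81 other assembly factors 2 were raised, the large subunit GTPase gene NOG2 (1.75, adjusted p = 3.69e-05) and SNU13 of the box C/D particle (0.86, adjusted p = 0.0452), and 8 lowered, led by the exosome cofactor LRP1 (-1.17), RPF1 (-0.89) and BRX1 (-0.75) of the large subunit. Their median was -0.12, while 80 of 138 ribosomal protein genes were raised and 8 lowered (median 0.78). SCH9 (-0.77, adjusted p = 0.0119) and TOD6 (-0.66, adjusted p = 0.0499) were lowered, and SFP1, DOT6 and STB3 were not called (-0.54 to -0.16).

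**Figure D5:**
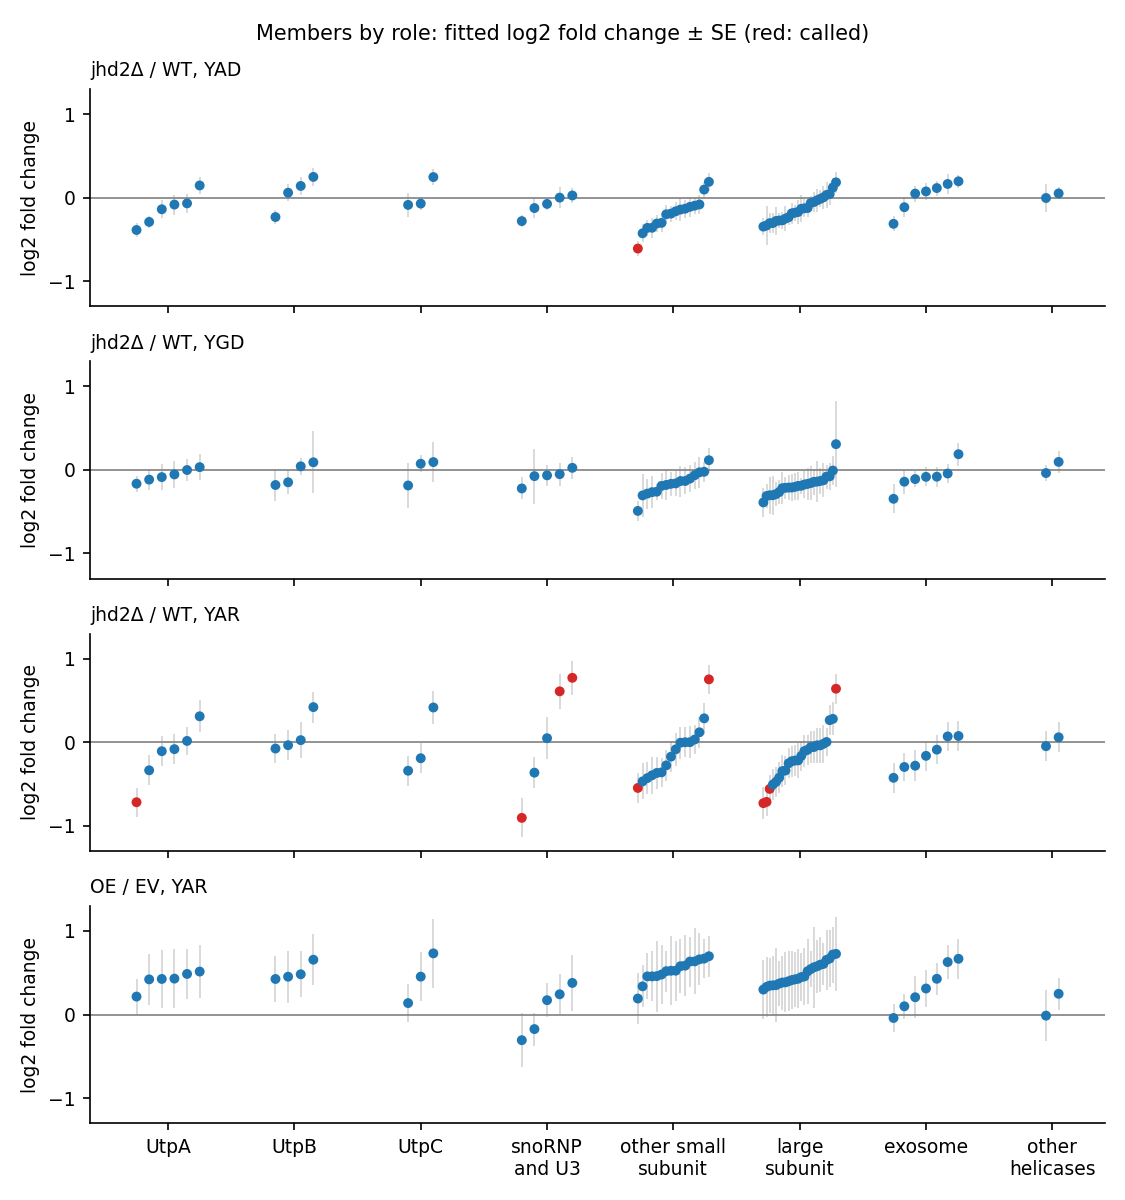
Fitted log2 fold change of each member with its standard error, grouped by role, for *jhd2Δ* against WT in YAD, YGD and YAR and OE against EV in YAR, with members past the threshold in red. Red dots appear in YAD (RRP12) and YAR (10 genes), and in the OE panel most dots lie above 0 (63 of 67).

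Whether the effect of *JHD2* loss differed between media was tested as a difference of the within-table effects over 5676 features. Between YGD and YAD 0 members passed an adjusted p under 0.05 in either direction, against 0.0352% of features higher and 0% lower. At an unadjusted p under 0.05, 1 member was higher and 2 lower, against 3.88% and 5.37% of features, and limma without its trend and robust options also gave 0. Between YAR and YAD 3 members passed, all with a higher effect in YAR, against 11.4% of features higher and 8.39% lower. NOP58 differed by 0.90 (SE 0.23, adjusted p = 0.0164), RRP12, which stood at 77.3 and 67.6 FPKM in WT and 69.4 and 88.9 in *jhd2Δ* in YAR, by 0.73 (SE 0.24, adjusted p = 0.0458) and UTP10 by 0.70 (SE 0.22, adjusted p = 0.0405). Leaving out any YAD culture left NOP58 alone. Without WT replicate 2 or *jhd2Δ* replicate 2 of YAR 0 members passed, and without WT replicate 3 of YGD, which enters through the shared spread, 3 passed higher and 4 lower. The YAR table also differs from the YAD table in the locus of NOP58, and the labelled mating types differ between *jhd2Δ* and WT in YAD alone of this pair of media, so these cannot be told apart from the medium.

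The members were also described by their promoter cores in the replicate comparisons. With both cores the median log2 fold change was -0.13 in YAD, -0.13 in YGD, -0.04 in YAR and 0.45 for OE against EV in YAR, and with neither core it was -0.0044, -0.04, -0.19 and 0.25. Both medians shared a sign in each comparison, but those near 0, such as -0.0044 with neither core in YAD, say little about direction. Those for OE against EV include EV replicate 3, without which the median of all 67 members fell from 0.45 to 0.10. The medians over 27 and 7 genes are descriptions with no test.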

How the data were processed

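Replicate cultures of WT, *jhd2Δ*, EV and OE were profiled by strand-specific, rRNA-depleted RNA sequencing. Per the submitters' processing notes the authors used FastQC 0.10.1, TopHat2 2.0.12 with Bowtie2 2.1.0, and Cufflinks 2.1.1 to make the deposited FPKM values, and Cuffdiff 2.1.1 to compare groups. The comparison tables also hold fold changes, p-values and q-values of the authors, which were not used, nor were sheets of gene ontology terms. Group FPKM values are the authors' own. Of the replicate columns 22 were used, and 6 were not, because the overexpression sheet labelled YAD held the same values as the YAR sheet for 7041 of 7041 features. Spike-in RNA was not used here.

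FPKM were multiplied by a library scale (median of ratios over features above 0 in every culture) and tested as log2(FPKM × scale + 1) with limma 3.58.1 in R 4.3.3 (eBayes with trend and robust options, two-sided), keeping features whose mean FPKM reached 1. A call needed a Benjamini-Hochberg adjusted p under 0.05 over all features and a fold over 1.4. Fold changes on this scale understate those of low genes. Each comparison was fitted within its own table, and the difference between media in a single model over 3 tables. Group values without replicates were compared as log2((FPKM + 1)/(FPKM + 1)), with no test. The fit was tested on simulated data. The cultures are biological replicates per the study's methods, and precision was judged from their spread alone. Alternatives were other scales, a pseudocount of 0.1, other filters, limma without trend and robust options, a replicate block, and leaving out each culture.

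The members and lists were chosen with earlier results of these data known. Named with values in every culture were all called members, the 3 largest changes in each direction among the uncalled where fewer than 4 were called, 12 members fixed by role, and the 5 highest and 5 lowest where there were no replicates. Deposited coordinates equalled RefSeq R64 for 6033 of 6045 features and for all 67 members, so promoter windows were read from R64.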

Additional observations from a re-analysis of the deposited data

Results flagged for a closer look

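By the limma test of the difference, the effect of *JHD2* loss differed between YAR and YAD for 3 of the 67 members, each higher in YAR. Over all features 11.4% were higher and 8.39% lower, so this count does not set the members apart. NOP58 differed by 0.90, from -0.12 in YAD to 0.77 in YAR. RRP12 differed by 0.73, from -0.61 in YAD to 0.12 in YAR. UTP10 differed by 0.70, from -0.39 in YAD to 0.31 in YAR. Over the alternatives and left-out cultures the adjusted p ranged from 0.00899 to 0.138 for NOP58, from 0.0214 to 0.315 for RRP12 and from 0.0156 to 0.316 for UTP10. No group held the 4 cultures needed to test for an outlying culture.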

How the results depend on the processing

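With FPKM as deposited, the members' median in YGD was 0.077, DBP2 (0.0067), DBP5 (0.19), NOP56 (0.18), NOP58 (0.16), RRP5 (0.16) and RRP6 (0.14) changed sign in YGD by more than 1 SE, and the difference between YAR and YAD passed for 0 members. Without centring, the median of EV YAR against EV YAD was 0.31 and that of OE against EV in YAD -0.18. Without a fold minimum 2 members were called lower in YAD. In YAR the upper-quartile scale gave 12 lower calls and a median of -0.22. All features moved down on that scale too, to a median of -0.13. At an unadjusted p under 0.05 in limma 23.4% of them were lower, against 15.7% in the main fit. In the same medium limma without trend and robust options gave 0 higher and 1 lower. Deviations of same-numbered cultures correlated at 0.0588 to 0.174 in YAD, where 6 of 6 cultures correlated best with their own number (a hint from the data, not the design), at -0.108 to 0.111 in YGD (2 of 6), at -0.0404 in YAR, and at -0.0447 to 0.162 for OE (4 of 6). In no comparison were all pairs over 0.1, so the numbers were not taken as pairs. A replicate block gave 0 higher and 0 lower calls in YAR, 1 lower in YAD (RRP12), 0 in YGD and for OE, and 3 higher and 1 lower between YAR and YAD. Leaving out each culture in turn gave 0 to 5 higher and 0 to 9 lower calls and a median of -0.27 to 0.011 in YAR, 0 to 7 members for the difference between YAR and YAD, and medians of -0.18 to -0.06 in YAD, -0.23 to -0.06 in YGD and 0.10 to 0.71 for OE. Single members that changed sign by more than 1 SE on leaving out a culture were NOP16 in YGD (-0.32 to 0.68), NOP1 (-0.27 to 0.36) and NOP7 (-0.49 to 0.058) in YAR, and DBP1 (-0.19 to 0.32) and NOP7 (-0.032 to 0.62) for OE. Beyond the choices of scale and culture themselves, the cause was not tested. Of 518 values of named members under the other alternatives, 473 kept their direction and side of the threshold, 29 lost the call and 16 changed sign, 10 of these by no more than 1 SE. Of 440 values with a culture left out, 360 kept both, 51 lost the call and 29 changed sign, 24 by no more than 1 SE. In both counts most values belonged to members that were not called in the main fit and so had no call to lose. The authors' group FPKM was not run as an alternative for WT and *jhd2Δ* in YAR, because the file does not name its sides. FPKM give no read depth, so counting error could not be given, and values near the lower limit of 1 FPKM are the least certain.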
